A study of Mus musculus with 45 samples.

Results

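The conjugating enzymes of mouse liver described here are the UDP-glucuronosyltransferases (UGT), the glutathione S-transferases (GST) other than the membrane enzymes, and the cytosolic sulfotransferases (SULT). Members were taken by gene symbol alone: every gene of the count tables whose symbol begins with Ugt and family 1, 2 or 3, with Gst and the class letter a, k, m, o, p, t or z and a number, or with Sult and a number. This gave 59 of 23227 genes, of which 20 are UGT, 21 GST and 18 SULT genes. Of the 59 members, 45 passed the filter on low counts and were tested, namely 18 UGT, 19 GST and 8 SULT genes, and the other 14 are given by their reads only.

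The 45 libraries were polyA RNA from livers of wild type C57BL/6J mice, all killed at 24 weeks of age after a night without food. Chow mice, mice on a high-fat diet (HFD) for 16 weeks, begun at 8 weeks of age, and mice on HFD for 6 weeks, begun at 18 weeks of age, were each sampled without treatment (basal, 3 libraries per group). The 3 diets were also sampled with metformin, given in drinking water to reach 270 mg per kg lean body mass per day from 8 or 18 weeks of age (3 libraries each). Chow and 16-week HFD mice were also sampled 15, 30, 60 and 120 min after an intraperitoneal injection of 1 U/kg insulin (3 libraries each, and 6 at 30 min on 16-week HFD). No 6-week HFD mice were sampled after insulin, and the basal groups are the only controls of the injection. The design states at least 3 mice per group without tying libraries to mice, so the p-values measure the spread between libraries.

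UGT enzymes transfer glucuronic acid from UDP-glucuronate to bilirubin, steroids, bile acids and drugs in the endoplasmic reticulum. GST enzymes join glutathione to electrophiles, mostly in the cytosol, and SULT enzymes transfer sulfate from the donor PAPS to steroids, catechols and phenols. In liver the 3 groups are known as the conjugation phase of drug and hormone clearance, and several of their genes are known targets of the nuclear receptors CAR and PXR, of the Ah receptor or of Nrf2.

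The promoters of UGT genes that were lower on HFD are shown first, with the half-site AGGTCA that many nuclear receptors bind, since receptors of this class are known regulators of conjugating enzymes. RefSeq promoters of GRCm38.p6 (250 bases before to 50 after the start) were found for 51 of the 59 members. AGGTCA, searched on both strands, was present for 7 of 18 UGT genes (38.9%), 2 of 19 GST genes (10.5%) and 2 of 14 SULT genes (14.3%). Over all promoters it was present in 5340 of 32851 entries (16.3%). Members were counted per gene, with a match in any promoter entry of the gene, and all promoters per entry, so these shares are not like measures. Capitals in the 250 bases before the start mark matches, and Ugt2b1 is shown as a gene that fell on HFD with no match in this window. The promoters, 5′ to 3′ on the strand of the gene, are those of Ugt2b5 (chr5:87140341-87140590, minus strand), Ugt2b35 (chr5:87000610-87000859, plus strand), Ugt1a9 (chr1:88070529-88070778, plus strand) and Ugt2b1 (chr5:86926504-86926753, minus strand).
Ugt2b5: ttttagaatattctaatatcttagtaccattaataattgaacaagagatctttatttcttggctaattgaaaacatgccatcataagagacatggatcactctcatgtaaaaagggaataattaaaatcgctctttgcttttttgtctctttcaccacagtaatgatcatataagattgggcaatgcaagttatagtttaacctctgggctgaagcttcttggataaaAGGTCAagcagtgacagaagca
Ugt2b35: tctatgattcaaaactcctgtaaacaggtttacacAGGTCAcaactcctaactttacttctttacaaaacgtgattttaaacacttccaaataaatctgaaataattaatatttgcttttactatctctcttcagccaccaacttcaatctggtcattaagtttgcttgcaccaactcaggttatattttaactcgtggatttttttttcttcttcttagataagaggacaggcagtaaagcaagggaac
Ugt1a9: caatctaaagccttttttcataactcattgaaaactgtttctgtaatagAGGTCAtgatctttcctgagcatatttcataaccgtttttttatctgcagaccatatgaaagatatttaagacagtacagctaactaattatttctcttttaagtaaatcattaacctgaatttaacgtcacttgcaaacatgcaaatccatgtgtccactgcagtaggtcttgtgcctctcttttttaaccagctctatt
Ugt2b1: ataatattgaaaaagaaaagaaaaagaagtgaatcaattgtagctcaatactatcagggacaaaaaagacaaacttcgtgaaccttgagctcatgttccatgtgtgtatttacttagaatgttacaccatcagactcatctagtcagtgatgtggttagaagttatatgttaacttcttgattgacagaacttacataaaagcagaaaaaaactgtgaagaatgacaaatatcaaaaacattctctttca
The first base of the match lay 22 bases before the start in Ugt2b5, 215 before it in Ugt2b35 and 201 before it in Ugt1a9. Among other genes of the Ugt2b family it lay 25 bases before the start in Ugt2b36 and Ugt2b38 and 39 before it in Ugt2b37, near its place in Ugt2b5. Of these other genes, Ugt2b38 was called lower in basal livers after 16 weeks of HFD, and Ugt2b36 and Ugt2b37 were not called. The Nrf2 element TGACNNNGC was present for 3 of 19 GST genes (15.8%) and for 0 UGT and 0 SULT genes, against 12.4% of all promoter entries. The Ah receptor core GCGTG was present for 9 of 51 members (17.6%), against 32.4% of all promoter entries. A match is a description of letters, and binding was not measured.

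Between 18.2 and 50.3 M reads per library were counted to genes. The deepest were the basal 6-week HFD libraries (35.1 to 50.3 M) and basal chow replicate 1 (45.7 M), and no other library exceeded 30.8 M. Levels are CPM, read counts scaled to library size by TMM. A gene was called where edgeR's quasi-likelihood test gave a Benjamini-Hochberg adjusted p below 0.05 over all 14067 genes tested. Some libraries stood apart. Replicate 1 of the 16-week HFD metformin group had the strongest fall of level with exon length (rank correlation -0.61 across genes, and -0.61 to -0.13 in the 9 metformin libraries against -0.22 to 0.29 in the other 36). Replicate 3 of the basal 16-week HFD group was high in several GST genes, and replicates 1 to 3 and 4 to 6 of the 16-week HFD group at 30 min differed in many members, as given with the insulin results. The 12 pancreatic acinar markers summed to 329 to 2018 CPM in basal chow and 10.1 to 190 CPM in basal 16-week HFD libraries, and reached 20734 CPM in 1 library of 16-week HFD at 15 min. Basal 16-week HFD libraries had levels that rose with GC content (rank correlation 0.17 to 0.32 across genes), and basal chow libraries the reverse (-0.29 to -0.08). The 6 hepatocyte markers summed to 86900 to 112578 CPM in the basal chow and HFD libraries. In bulk liver, fewer cells of a type and less RNA per cell cannot be told apart.

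Counts of close copies are uncertain. Of the 59 members, 23 share 20% or more of their 40-base words with another gene, and 17 of these were tested. They include Gstp1 (36.1%) and Gstp2 (57.0%), Ugt2b5 (48.4%), Ugt2b37 (26.1%) and Ugt2b38 (45.4%), Gsta1 (91.8%), Gsta2 (56.1%), Gstm1 (23.5%) and Gstm3 (33.3%). The 8 Ugt1a genes share 57.2 to 72.2% of their exon bases in the authors' gene models, which leaves 890 to 986 bases of their own per gene. Ugt1a2 nevertheless stood at 0.226 CPM and Ugt1a1 at 250 CPM on average, so reads of the shared exons were not added to every Ugt1a gene. Gstz1, which isomerises maleylacetoacetate in tyrosine breakdown, shares 22.6% of its exon bases with Pomt2 on the opposite strand, and the kit does not mark strand.

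Per kilobase of exon sequence not shared with another gene model, the highest mean levels over 45 libraries were those of Gstp1 (948 CPM per kb), Gsta3 (649), Gstm1 (503), Gstz1 (438) and Ugt2b5 (378). The order depended on diet, with Gstp1 at 1417 and Gsta3 at 360 CPM per kb in basal chow, and Gstp1 at 521, Gstm1 at 661 and Gsta3 at 826 CPM per kb in basal 16-week HFD libraries. Gsta3 is an alpha-class and Gstm1 a mu-class enzyme, and both conjugate a wide range of electrophiles. Ugt2b36 (317 CPM per kb), Ugt1a1 (274), the enzyme that conjugates bilirubin, and Ugt3a2 (221) followed. The highest SULT genes were Sult1a1 (199 CPM per kb), which sulfates small phenols, and Sult1d1 (66.0), which acts on catecholamines. Ugt2b34 and Ugt2a3 stood at 164 and 122 CPM per kb, Gstt1 and Gstk1 at 183 and 128, and Sult1b1, Sult5a1, Sult1c2 and Sult2a7 between 2.66 and 11.1. Sult1c1 and Sult2a5 had no read in any library. The other 12 untested members had 1 to 136 reads over all 45 libraries. Sult2a1, a known female-biased liver enzyme, was among them with 21 reads.

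In basal livers, 5 UGT genes fell after 16 weeks of HFD and no UGT gene was called higher, while 4 GST and 2 SULT genes rose and 2 GST genes fell. Of the 45 tested members, 13 were called (28.9%), 6 higher and 7 lower, against 32.3% of all genes tested (16.0% higher and 16.3% lower). In this fit over all 14 groups the members' share was thus near that of all genes. The median log2 fold change was 0.18 over the members and 0.02 over all genes, and the median absolute value was 0.44 over the members and 0.32 over all genes. After 6 weeks 8 members were called (17.8%), 3 higher and 5 lower, against 11.0% of all genes (5.98% higher and 5.03% lower). With only the 2 groups compared in the fit the members' shares were higher than those of all genes. After 16 weeks 20 of 41 tested members were called (48.8%, against 35.6%), and after 6 weeks 19 of 43 (44.2%, against 15.9%). These held all 13 and all 8 of the calls above. Both comparisons use the same 3 basal chow libraries.

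The UGT genes that fell were mainly of the Ugt2b family, whose enzymes conjugate steroids, bile acids and drugs. Ugt2b5, the highest UGT gene per kilobase over all libraries (mm9 chromosome 5, 87553972 to 87569365), stood at 966, 1013 and 1000 CPM in basal chow libraries, at 652, 591 and 591 CPM after 6 weeks of HFD and at 492, 362 and 401 CPM after 16 weeks. The 3 groups did not overlap. Its log2 fold change was -1.25 after 16 weeks (SE 0.18, adjusted p = 2.1e-06) and -0.70 after 6 weeks (adjusted p = 0.00733). Ugt2b1 stood at 557, 487 and 478 CPM on chow and at 282, 204 and 216 CPM after 16 weeks (log2 fold change -1.11, SE 0.21, adjusted p = 0.000102). Its 6-week libraries, at 456, 384 and 298 CPM, lay below chow and above the 16-week libraries, and were not called against chow (log2 fold change -0.42).

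Ugt2b35 had the smallest fold of these 3 abundant genes. It stood at 282, 270 and 284 CPM on chow, at 192, 174 and 208 CPM after 6 weeks and at 142, 121 and 196 CPM after 16 weeks. Its log2 fold change was -0.86 after 16 weeks (SE 0.16, adjusted p = 9.6e-05) and -0.54 after 6 weeks (adjusted p = 0.0235). The 6-week call was lost without 6-week replicate 1 or 2 or any 1 chow library (adjusted p = 0.0562 to 0.11). Ugt2b38, a close copy of Ugt2b5, fell with a log2 fold change of -1.32 after 16 weeks (adjusted p = 0.0102), from 18.5, 13.9 and 11.4 to 8.11, 4.86 and 4.63 CPM. That call was lost without chow replicate 1 (adjusted p = 0.056) or 16-week replicate 2 (0.0526) or 3 (0.0522). The Ugt2b family summed to 2882 to 2900 CPM in basal chow libraries, 2243 to 2504 CPM after 6 weeks and 1596 to 2006 CPM after 16 weeks.

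Ugt1a9, whose human counterpart conjugates phenols and propofol, had the largest UGT fold (mm9 chromosome 1, 89967354 to 90116577, with the shared Ugt1a exons). It stood at 19.5, 29.1 and 28.8 CPM on chow, at 6.17, 8.62 and 11.1 CPM after 6 weeks and at 4.56, 7.81 and 13.4 CPM after 16 weeks. Neither HFD group overlapped with chow, and the HFD groups overlapped with each other. The log2 fold change was -1.58 after 16 weeks (SE 0.38, adjusted p = 0.00171) and -1.57 after 6 weeks (adjusted p = 0.00533). The fall was not shared by the Ugt1a family as a sum, which stood at 351 to 359 CPM on chow, 358 to 415 CPM after 6 weeks and 345 to 430 CPM after 16 weeks. Abundant UGT genes that were not called after 16 weeks were Ugt2b36 (log2 fold change -0.23), Ugt2b34 (0.10), Ugt3a2 (-0.10) and Ugt2a3 (-0.04). Ugt2b37 was called lower after 6 weeks and not after 16 weeks (6-week log2 fold change -1.05, adjusted p = 0.041), and the loss of any 1 of the 6 libraries ended that call (0.0656 to 0.175).

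**Figure D1:**
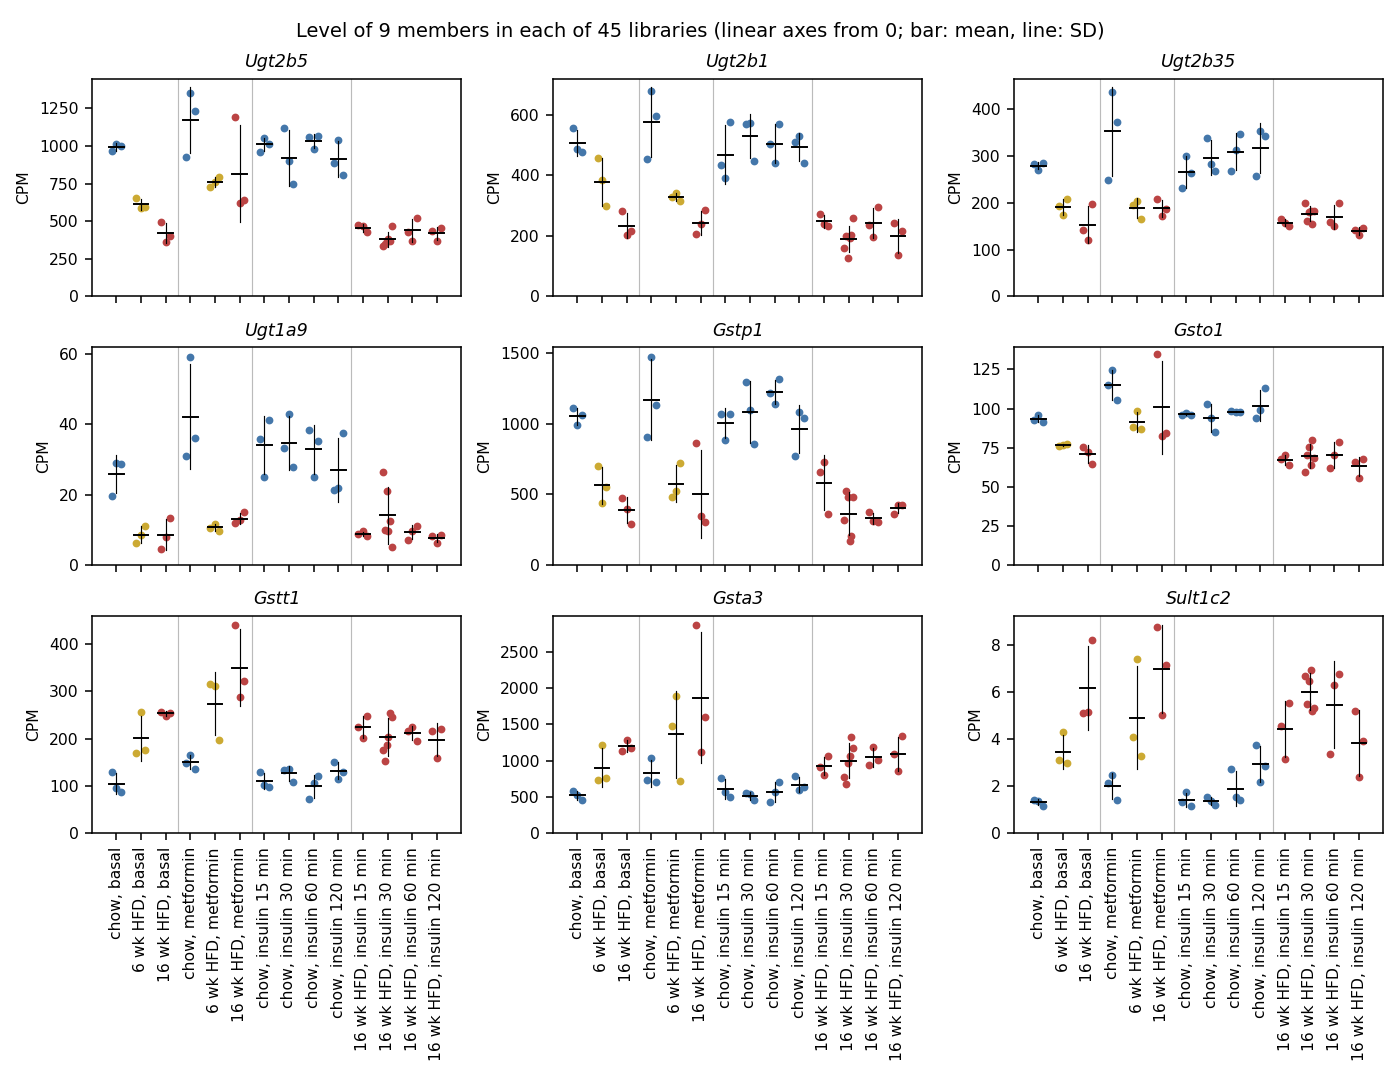
Levels (CPM, linear axes from 0) of 9 members in each of the 45 libraries, with blue points for chow, yellow for 6-week HFD and red for 16-week HFD, horizontal bars for group means and vertical lines for the SD. The UGT genes, Gstp1 and Gsto1 are lower and Gstt1, Gsta3 and Sult1c2 higher in basal 16-week HFD than in basal chow libraries, and 1 red metformin point stands far above the others of its group for Ugt2b5 (1190 CPM) and Gstp1 (861 CPM).

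GST genes changed in both directions. Gstp1, the highest member per kilobase over all libraries and the main pi-class enzyme (mm9 chromosome 19, 4035411 to 4037912), stood at 1109, 989 and 1066 CPM on chow, at 700, 442 and 550 CPM after 6 weeks and at 474, 399 and 290 CPM after 16 weeks. No HFD library reached the chow range. Its log2 fold change was -1.44 after 16 weeks (SE 0.34, adjusted p = 0.00112), and the 6-week value of -0.90 was not called. Gstp2, its neighbour on chromosome 19 and near-identical copy, was called lower after 6 weeks (log2 fold change -1.63, adjusted p = 0.00981) and not after 16 weeks (-0.99, adjusted p = 0.0656). Since reads can be split between the pair, the sum of both is the safer value. It stood at 1022 to 1160 CPM on chow, 454 to 712 CPM after 6 weeks and 304 to 504 CPM after 16 weeks.

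The sequences of this pair show how little separates them. Their coding sequences in GENCODE M21 are 633 bases long and differ at 12 bases (98.1% identity), with 1 identical run of 303 bases. Reads of this study had 40 to 50 bases. Coding bases 1 to 120 hold 6 of the 12 differences, in capitals.
Gstp1: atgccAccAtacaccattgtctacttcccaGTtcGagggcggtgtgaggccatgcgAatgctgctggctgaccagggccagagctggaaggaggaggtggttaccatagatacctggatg
Gstp2: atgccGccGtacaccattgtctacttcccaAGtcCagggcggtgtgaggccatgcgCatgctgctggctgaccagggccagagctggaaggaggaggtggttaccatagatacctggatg
The other 6 differences lie further along the coding sequence, and a read pair that covers none of the 12 has no coding base by which it can be placed.

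Gsto1, an omega-class enzyme that reduces dehydroascorbate and arsenicals, had a small and even fall. It stood at 93.0, 95.9 and 91.5 CPM on chow, 76.3, 76.7 and 77.0 CPM after 6 weeks and 75.5, 72.5 and 64.6 CPM after 16 weeks (16-week log2 fold change -0.40, SE 0.13, adjusted p = 0.0132). The groups did not overlap, but the 16-week call was lost without 16-week replicate 3 (adjusted p = 0.0740). Among the genes that rose, Gstt1, a theta-class enzyme known for dihalomethanes (mm9 chromosome 10, 75246558 to 75261329), stood at 130, 96.2 and 87.8 CPM on chow, 170, 255 and 177 CPM after 6 weeks and 257, 248 and 255 CPM after 16 weeks. Every HFD library was above every chow library. Its log2 fold change was 1.27 after 16 weeks (SE 0.21, adjusted p = 1.34e-05) and 0.94 after 6 weeks (adjusted p = 0.00233).

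Gsta3, whose mean CPM over all 45 libraries was the highest of the GST genes, stood at 577, 533 and 457 CPM on chow and at 1134, 1288 and 1172 CPM after 16 weeks (log2 fold change 1.20, SE 0.29, adjusted p = 0.00145). The 6-week libraries at 741, 1211 and 766 CPM were also above chow and were not called (0.79). Gstt3, which lies beside Gstt1 on chromosome 10, had the largest GST fold. It rose from 38.2, 33.7 and 26.5 to 70.6, 86.5 and 124 CPM after 16 weeks (log2 fold change 1.51, adjusted p = 0.00322). At 6 weeks it stood at 36.7, 59.9 and 21.7 CPM, which overlapped with chow. Gstm2, a mu-class enzyme, was called higher after 16 weeks (0.88, adjusted p = 0.00611) from libraries of 31.8, 39.4 and 69.5 CPM, and not without the highest of them, replicate 3 (log2 fold change 0.49, adjusted p = 0.150). Gstz1 (0.20), Gstm1 (0.51) and Gstk1 (0.27) were not called.

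SULT genes were called in 1 direction. Sult1c2, which sulfates phenols and hydroxyarylamines, had the largest fold of the 13 called members, at low levels (mm9 chromosome 17, 53968962 to 53985283). It stood at 1.42, 1.39 and 1.17 CPM on chow, 3.13, 4.31 and 2.99 CPM after 6 weeks and 5.12, 5.17 and 8.25 CPM after 16 weeks. The 3 groups did not overlap. The log2 fold change was 2.21 after 16 weeks (SE 0.32, adjusted p = 3.68e-06) and 1.37 after 6 weeks (adjusted p = 0.00443). Sult1b1, which sulfates thyroid hormones and phenols, rose from 17.3, 17.9 and 14.01 to 31.3, 37.0 and 31.9 CPM after 16 weeks (log2 fold change 1.02, adjusted p = 0.00925). Its 6-week libraries stood at 30.9, 48.0 and 26.8 CPM (1.10, adjusted p = 0.0148), a 6-week call lost without 6-week replicate 2 (0.127) or chow replicate 3 (0.0826). Sult1a1 (0.05) and Sult1d1 (0.14), the abundant SULT genes, were not called. Sult3a1, whose fold was the largest of the SULT genes, reached 0.573 CPM in 1 of the 16-week libraries and was not called (log2 fold change 3.02, adjusted p = 0.0913).

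The libraries taken after insulin gave a second comparison of 16-week HFD with chow, in 15 HFD and 12 chow libraries that share none with the basal comparison. The contrast is the mean of the diet differences at the 4 times. Of the 45 tested members 22 were called (48.9%), 7 higher and 15 lower, against 59.4% of all genes (31.9% higher and 27.5% lower). Of the 13 basal calls 12 were called here too (92.3% of the basal and 54.5% of these calls), all 12 in the same direction. The exception was Gstm2. Over all genes 3897 of the 4539 basal calls were called again (85.9%), 3876 of them in the same direction, so recurrence was common to genes at large. Called lower were 9 UGT, 5 GST and 1 SULT genes, and higher 3 GST and 4 SULT genes.

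For 7 members the 15 HFD libraries did not overlap with the 12 chow libraries (15.6% of the tested members, against 7.30% of all genes). Of these 6 were lower (13.3%, against 4.34%) and 1 higher (2.22%, against 2.96%). Ugt2b5 ranged from 338 to 519 CPM on HFD (median 426) and from 749 to 1119 CPM on chow (median 998), with a log2 fold change of -1.20 (SE 0.09, adjusted p = 1.17e-13). Ugt2b1 ranged from 128 to 296 CPM on HFD (median 218) and from 393 to 578 CPM on chow (median 506). Ugt2b35 ranged from 131 to 200 CPM (median 158) and from 231 to 352 CPM (median 291) in the same order. These 3 genes of the steroid and drug conjugating Ugt2b family were called at each of the 4 times. At 15, 30, 60 and 120 min 12, 20, 15 and 10 members were called, against 24.4%, 37.3%, 22.4% and 28.2% of all genes.

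Gstp1 ranged from 172 to 728 CPM on HFD (median 373) and from 771 to 1318 CPM on chow (median 1076), and was called at 30, 60 and 120 min and not at 15 min (adjusted p = 0.0783). Gstp2 ranged from 8.30 to 31.2 CPM on HFD and from 34.1 to 83.0 CPM on chow, and Gsto1 from 55.9 to 80.1 and from 84.8 to 113 CPM. The Gstp sum, which a split of reads within the pair does not move, ranged from 180 to 759 CPM on HFD and from 809 to 1385 CPM on chow. Gstt1 was the member without overlap in the other direction, at 153 to 254 CPM on HFD (median 216) and 73.2 to 151 CPM on chow (median 118).

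Other basal calls were also found after insulin but with overlapping libraries. Ugt1a9 ranged from 5.01 to 26.4 CPM on HFD (median 9.56) and from 21.3 to 43.0 CPM on chow (median 34.3), with a log2 fold change of -1.72 (SE 0.18, adjusted p = 1.18e-09). The overlap came from replicate 1 at 30 min, at 26.4 CPM. Sult1c2 ranged from 2.41 to 6.96 CPM on HFD and from 1.16 to 3.74 CPM on chow (1.42, adjusted p = 1.85e-09). It was called at 15, 30 and 60 min and not at 120 min (log2 fold change 0.38, adjusted p = 0.373), where chow stood at 3.74, 2.20 and 2.88 CPM. Gsta3 (0.78), Gstt3 (0.85) and Sult1b1 (0.81) were higher and Ugt2b38 (-1.28) lower, with adjusted p between 9.2e-07 and 0.000247.

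Members that were called after insulin and not in the basal livers included Ugt2b37 (-0.97, adjusted p = 4.57e-06), Gsta2 (-0.84, adjusted p = 0.00491) and Sult2a7 (1.42, adjusted p = 4.09e-05). Whether their diet effects differ between basal and insulin libraries was tested over the 4 times, and no member was called. Sult3a1, at most 1.18 CPM, was called higher (1.99, adjusted p = 0.0171). It was not called without 15 min replicate 3 (0.0556), 120 min replicate 2 (0.0690) or replicates 4 to 6 at 30 min (0.0522), all on HFD. Macrophage markers were also higher on HFD in these libraries (7 of 7 called, summed at 295 to 1048 CPM on HFD and 140 to 565 CPM on chow), and their part in the member results was not tested. In the basal libraries edgeR called 0 of these 7 markers, and 1 had an unadjusted p below 0.05.

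**Figure D2:**
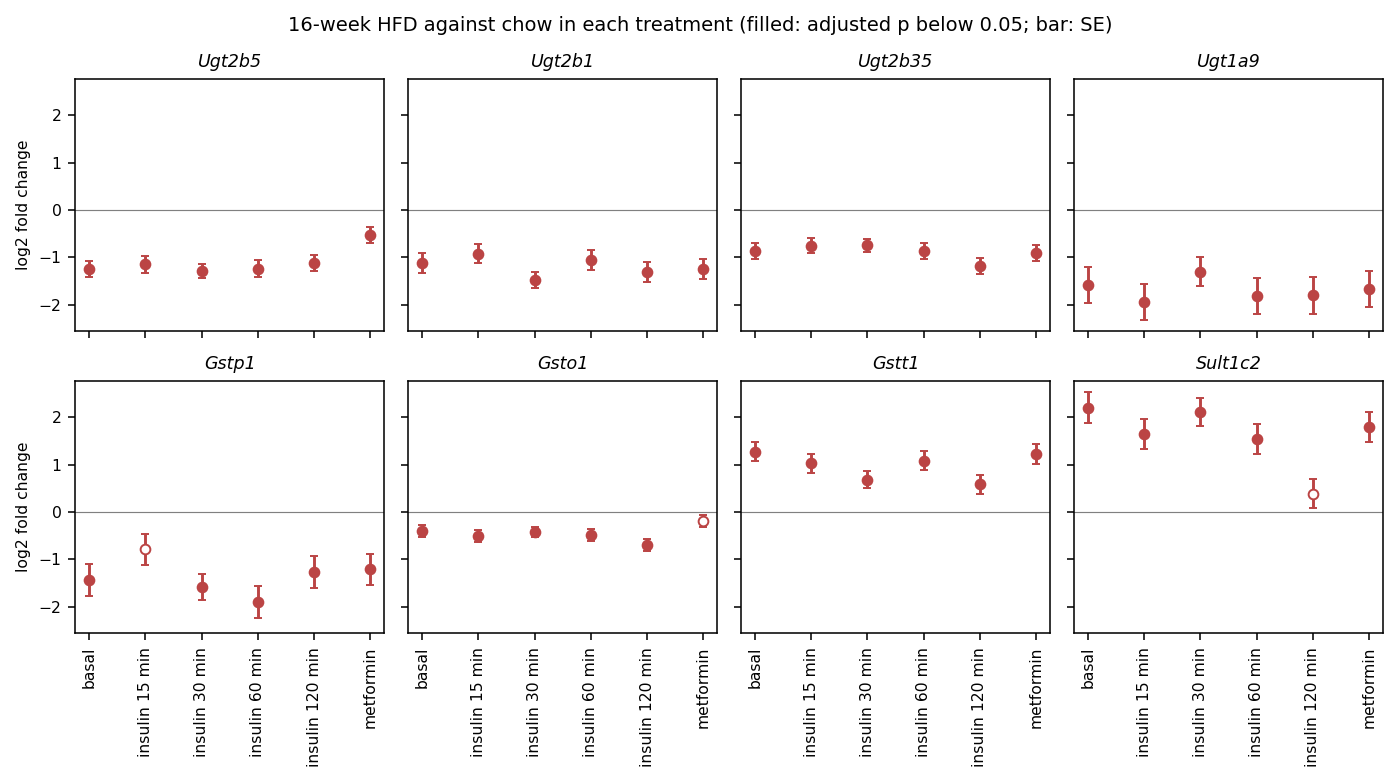
Log2 fold changes of 16-week HFD against chow (vertical axis, bars for the SE) for 8 members without treatment, at 4 times after insulin and with metformin, with filled points where the adjusted p was below 0.05. Ugt2b5, Ugt2b1, Ugt2b35 and Ugt1a9 lie below 0 and are filled in all 6 comparisons, and Sult1c2 is open at 120 min (0.38).

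Directly compared, 16 weeks of HFD differed from 6 weeks in 8 members (17.8%, against 10.2% of all genes), 6 higher (4.18% of all genes) and 2 lower (6.03%). Gsta1 (2.12), Gstm3 (1.97), Gstt3 (1.25), Ugt2b37 (1.24), Gstm1 (0.97) and Gstm2 (0.77) were higher and Ugt2b1 (-0.70) and Ugt2b5 (-0.55) lower after 16 weeks, with adjusted p between 0.0094 and 0.0405. These calls rested on few libraries. With only these 2 groups in the fit 3 of 43 tested members were called (6.98%, against 6.76% of all genes). Gstm1, Gstm2, Gstm3, Gstt3 and Ugt2b1 were then not called (adjusted p = 0.0608 to 0.141). Without 6-week replicate 1, 2 or 3 the count was 0, 4 (8.89%) or 3 (6.67%), against 3.79%, 5.99% or 7.37% of all genes. Without 16-week replicate 2 or 3 it was 4 (8.89%) or 2 (4.44%), against 4.23% or 6.75%. These shares of all genes were also below the 10.2% of the full fit. Gstm3 is an example of a call that rested on few libraries. It stood at 8.28, 13.1 and 10.0 CPM after 6 weeks and at 19.1, 24.2 and 79.2 CPM after 16 weeks, with the same replicate 3 also highest for Gstm1 (603, 656 and 1305 CPM) and Gsta1 (1.43, 1.75 and 5.29 CPM). Without it, Gstm3 had a log2 fold change of 1.06 (adjusted p = 0.182). With the trends of level with exon length and GC content removed, Gstt3 (1.20, adjusted p = 0.0599), Ugt2b1 (-0.52, adjusted p = 0.108) and Ugt2b5 (-0.38, adjusted p = 0.134) were not called. The age at which HFD began differs between these groups, so time on diet and age at its start cannot be told apart.

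Among metformin libraries the 16-week HFD group differed from chow in 10 members (22.2%, against 20.4% of all genes), 5 higher (11.2% of all genes) and 5 lower (9.25%). The 6-week HFD group differed in 7 (15.6%, against 4.43%), 2 higher (2.27% of all genes) and 5 lower (2.16%). Both use the same 3 chow metformin libraries, which share none with the basal groups. Ugt1a9 stood at 31.1, 59.1 and 36.1 CPM on chow, 10.6, 11.7 and 9.62 CPM on 6-week HFD and 11.8, 12.7 and 15.0 CPM on 16-week HFD, with no overlap of either HFD group with chow. Its log2 fold change was -1.98 on 6-week (adjusted p = 0.00172) and -1.67 on 16-week HFD (adjusted p = 0.0021). Ugt2b35 (-0.90 and -0.91) was called lower in both. With only the 2 groups compared in the fit the 16-week count was 4 of 42 tested members (9.52%, against 2.25% of all genes). Ugt2b35 (adjusted p = 0.0602), Gsta3 (0.114), Gstp1 (0.136), Gstk1 (0.139), Gstz1 (0.281) and Ugt2b5 (0.296) were then not called. These counts also moved with single libraries. The 16-week count was 16 without 16-week replicate 2, and the 6-week count was 4 without chow replicate 2, 2 without chow replicate 3, and 3 and 4 without 6-week replicates 1 and 2.

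Ugt2b1 with metformin stood at 453, 680 and 596 CPM on chow, 330, 342 and 314 CPM on 6-week HFD and 205, 239 and 285 CPM on 16-week HFD. Its 16-week log2 fold change was -1.25 (adjusted p = 9.4e-05). The 6-week value of -0.81 (adjusted p = 0.0174) was lost without chow replicate 2 or 3 or any 1 of the 6-week libraries (0.0534 to 0.105). Gstt1 was called higher in both (0.87 and 1.22), Sult1c2 too (1.29 and 1.80), and in the 16-week group Gsta3 was higher (1.17) and Gstp1 lower (-1.22). The 6-week call was lost for Gstt1 without chow replicate 3 or 6-week replicate 1 or 2 (0.0561 to 0.0692) and for Sult1c2 without chow replicate 3 (0.121) or 6-week replicate 2 (0.181). The 16-week call was lost for Gsta3 without 16-week replicate 1 (0.0904) and for Gstp1 without chow replicate 2 (0.0522) or 16-week replicate 3 (0.0548). Gstk1 (0.75) and Gstz1 (0.41) were also higher in the 16-week group, the latter not without chow replicate 3 (0.140) or 16-week replicate 1 (0.220). The 6-week group was lower in Gsta2 (-1.96, adjusted p = 0.0273), lost without chow replicate 2 or 3 or 6-week replicate 1 or 3 (0.0733 to 0.122).

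Ugt2b5 had the lowest adjusted p among members in the test of the metformin response by diet, without being called. It stood at 927, 1355 and 1234 CPM on chow and at 1190, 618 and 639 CPM on 16-week HFD with metformin, so that the groups overlapped through replicate 1. The diet difference was -0.52 on the log2 scale (adjusted p = 0.0295), a call lost without chow replicate 2 (0.148) or 3 (0.0943) or 16-week replicate 2 (0.157) or 3 (0.152). The metformin response by diet was 0.72 log2 higher on 16-week HFD than on chow and was not called (SE 0.25, adjusted p = 0.0750). No member was called in that test (4.96% of all genes were, 3.23% with a higher and 1.73% with a lower response on 16-week HFD). In it 3 members had an unadjusted p below 0.05 (against 22.2% of all genes), and DESeq2 called 1 (against 7.63%). Without 16-week HFD metformin replicate 2 the count was 2 (against 9.65% of all genes). It was 1 without replicate 3 of that group (9.67%) or without basal 16-week replicate 1 (6.39%). The 6-week diet difference of Ugt2b5 with metformin was -0.62 (adjusted p = 0.0317), lost without chow replicate 2 or 3 or any 1 of the 6-week libraries (0.0561 to 0.156).

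**Figure D3:**
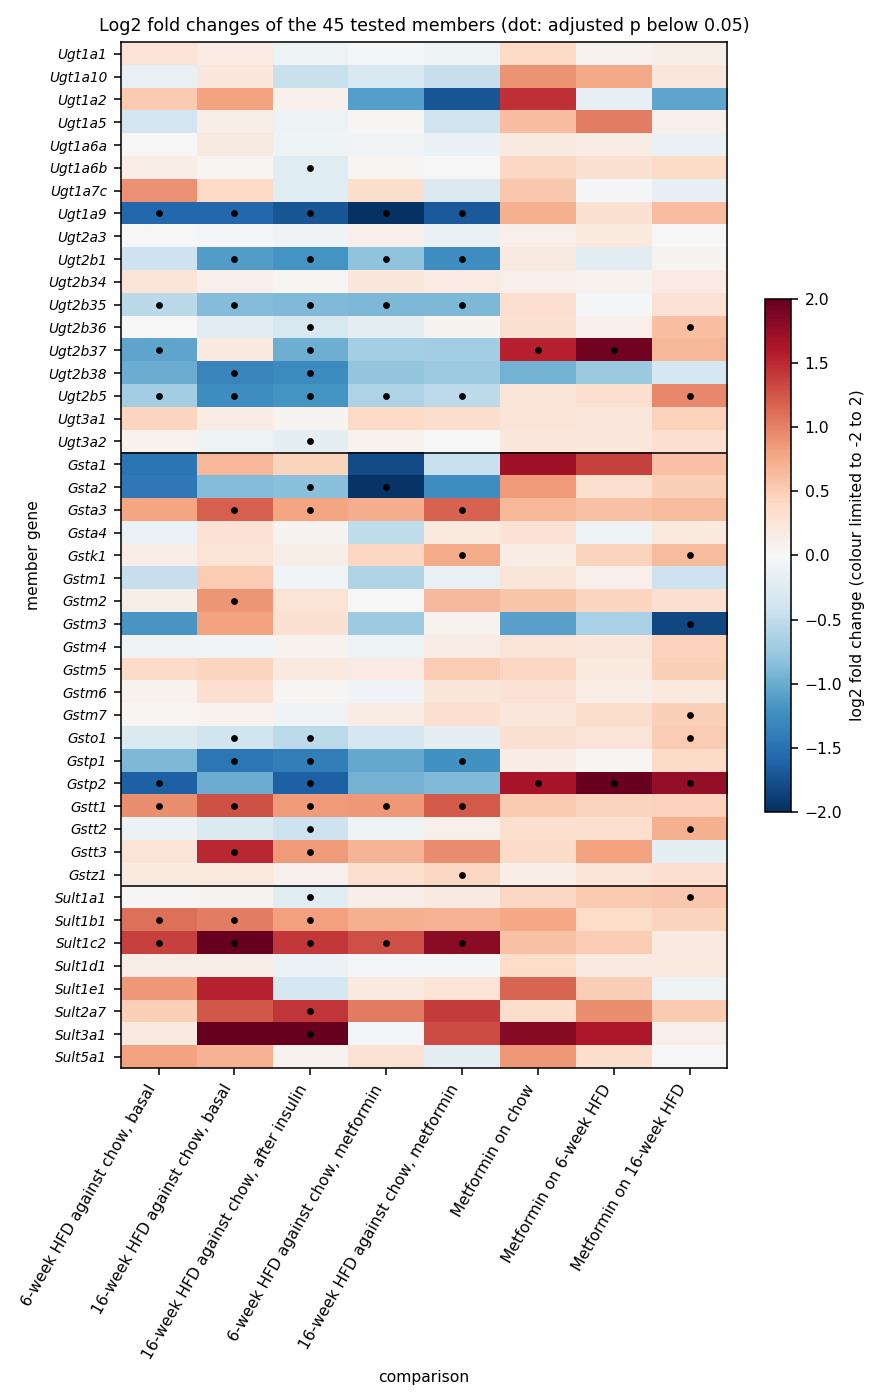
Log2 fold changes of the 45 tested members (rows, UGT, GST and SULT from top to bottom) in 8 comparisons (columns), with red for higher, blue for lower, colour limited to -2 to 2, and a dot where the adjusted p was below 0.05. Ugt1a9 and Ugt2b5 are blue with a dot and Gstt1 and Sult1c2 red with a dot in all 5 diet columns, and Gstp2 is red with a dot in all 3 metformin columns.

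Gstp2 was called higher with metformin on all 3 diets, though on 16-week HFD the call needed the fit over all 14 groups (with only the basal and metformin groups of that diet in the fit, log2 fold change 1.71, adjusted p = 0.163). On chow 2 members were called, Gstp2 and Ugt2b37, both higher (4.44%, against 1.94% of all genes, 1.27% higher and 0.668% lower). With only the 2 groups compared in the fit 8 of 40 tested members were called on chow (20%, against 4.09% of all genes), these 2 among them. On 6-week HFD the same 2 genes were called higher (4.44%, against 3.17%, 1.93% higher and 1.24% lower). Gstp2 stood at 51.4, 33.4 and 34.8 CPM in basal and 94.7, 148 and 132 CPM in metformin libraries on chow (log2 fold change 1.64, SE 0.42, adjusted p = 0.0292). On 6-week HFD it stood at 12.3, 12.4 and 13.96 against 58.2, 59.2 and 77.3 CPM (2.33, adjusted p = 0.00126), and on 16-week HFD at 29.4, 17.1 and 13.8 against 131, 37.0 and 35.3 CPM (1.75, adjusted p = 0.00241). Basal and metformin libraries overlapped on none of the diets. The chow call was lost without metformin replicate 2 (adjusted p = 0.15) or 3 (0.0517) or basal replicate 2 (0.191) or 3 (0.146), and the 16-week call without metformin replicate 1 (log2 fold change 0.85, adjusted p = 0.163).

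Ugt2b37, a close copy of Ugt2b5, stood at 13.2, 9.29 and 9.61 CPM in basal and 24.2, 37.2 and 33.9 CPM in metformin libraries on chow (1.56, adjusted p = 0.0083). On 6-week HFD it stood at 4.08, 5.78 and 5.81 against 17.2, 18.6 and 23.4 CPM (1.92, adjusted p = 0.000788). The groups did not overlap. The chow call was lost without metformin replicate 2 (0.0628) or basal replicate 2 (0.0795) or 3 (0.0628), and the 16-week difference of 0.66 was not called.

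Both genes are less abundant than a close copy, Gstp1 for Gstp2 and Ugt2b5 for Ugt2b37. Their shares of the sum with that copy were compared between libraries. Ugt2b38 is also a close copy of Ugt2b5, so Ugt2b37 and Ugt2b5 are not a closed pair. Gstp2 made up 9.14 to 13.2% of the Gstp pair in all 9 metformin libraries and 1.72 to 7.83% in the other 36, with no overlap. Ugt2b37 made up 2.18 to 2.86% of its sum with Ugt2b5 in metformin libraries and 0.622 to 3.25% in the others, with overlap. Against basal libraries of the same diet this share was higher with metformin on chow (2.55 to 2.67 against 0.909 to 1.35%) and 6-week HFD (2.31 to 2.86 against 0.622 to 0.974%), but not on 16-week HFD (2.18 to 2.57 against 2.53 to 3.25%). Gstm3 moved the other way, at 1.20 to 2.03% of its sum with Gstm1 in metformin libraries and 1.90 to 7.83% in the others. These libraries also had the negative trend of level with exon length, and its part in the shares was not tested. With length and GC trends removed both chow calls, both 6-week calls and the 16-week call of Gstp2 held.

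**Figure D4:**
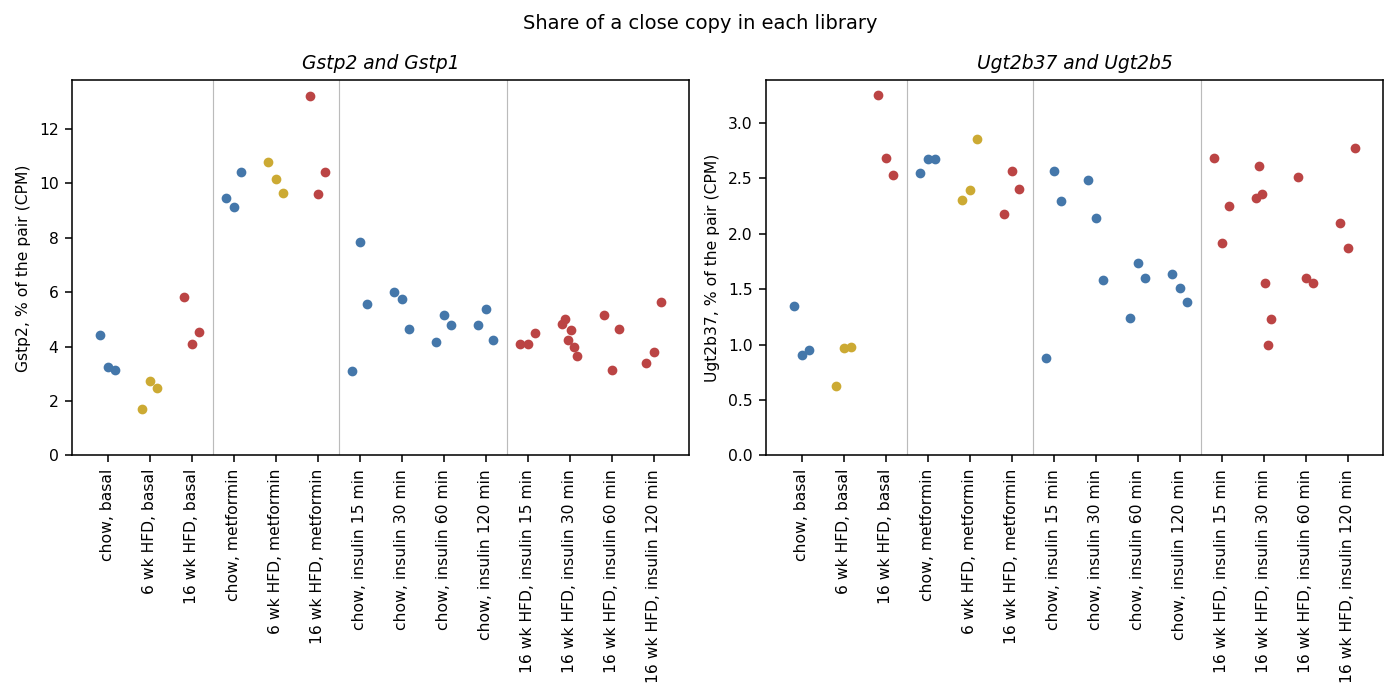
Share of Gstp2 in the sum of Gstp2 and Gstp1 (left) and of Ugt2b37 in the sum of Ugt2b37 and Ugt2b5 (right), in percent of CPM, 1 point per library, with blue for chow, yellow for 6-week HFD and red for 16-week HFD. The 9 metformin libraries lie between 9.14 and 13.2% on the left, above the other 36.

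On 16-week HFD metformin changed 9 members (20%, against 28.4% of all genes), 8 higher (16.9% of all genes) and 1 lower (11.5%). Beside Gstp2, those higher were Ugt2b5 (0.96, adjusted p = 0.000172), Gstt2 (0.71), the peroxisomal and mitochondrial enzyme Gstk1 (0.63), Ugt2b36 (0.60), Sult1a1 (0.54), Gsto1 (0.51) and Gstm7 (0.47), and Gstm3 was lower (-1.82). With only these 2 groups in the fit no member was called, and 0.109% of all genes were, with adjusted p of 0.163 for Ugt2b5 and Gstp2, 0.171 for Gstm3 and up to 0.285 (Gstm7) for the others. Most of these calls rested on metformin replicate 1. Without it 2 members were called (against 11.0% of all genes), and the values of Gstt2 (0.45, adjusted p = 0.0888), Gstk1 (0.30, adjusted p = 0.176), Ugt2b36 (0.37, adjusted p = 0.136), Sult1a1 (0.39, adjusted p = 0.201), Gsto1 (0.24, adjusted p = 0.144) and Gstm7 (0.16, adjusted p = 0.424) were no longer called. Without metformin replicate 2 the count was 15 (against 31.9% of all genes). With length and GC trends removed 4 members were called (against 17.4%), and Gstk1, Ugt2b36, Sult1a1, Gsto1 and Gstm7 were lost. Gstm3 was lost without basal replicate 3 (-0.91, adjusted p = 0.192), the library with 79.2 CPM. Sult1a1 was also lost without basal replicate 2 (0.0811) or 3 (0.0692).

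Within 120 min of insulin no member changed by the test over the 4 times. Of the 45 members 0 were called on chow, where 4.83% of all genes were, and 0 on 16-week HFD, where 2.34% were. At an unadjusted p below 0.05 there were 4 members on each diet, against 18.0% of all genes on chow and 18.6% on 16-week HFD. DESeq2 called 1 member on chow, against 7.57% of all genes, and 0 on 16-week HFD, against 6.06%. On chow the lowest adjusted p was that of Sult1c2 (0.0651), which stood at 2.94 CPM on average at 120 min against 1.33 CPM in basal libraries (log2 fold change 1.15, adjusted p = 0.0333 at this time alone, where 5.08% of all genes were called). On chow 1 member was called without 30 min replicate 3 (2.22%, against 4.52% of all genes). The response to insulin differed between diets in 0 members (0.263% of all genes). In that test 5 members had an unadjusted p below 0.05 (against 14.2% of all genes), DESeq2 called 1 (against 2.39%), and the lowest adjusted p by edgeR was 0.113 for Sult1c2.

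The 6 libraries of 16-week HFD at 30 min bear on these counts. Replicates 1 to 3 and 4 to 6 did not overlap in 25 of the 45 tested members (55.6%, against 42.1% of all genes, 20.1% higher and 22.0% lower in replicates 1 to 3), and the labels give no reason for the numbering. Levels rose with GC content in replicates 1 to 3 (rank correlation across genes 0.19 to 0.22) and fell with it in replicates 4 to 6 (-0.22 to -0.13), and the part of this trend in the member differences was not tested. Replicates 1 to 3 were lower in 18 of these, among them Ugt3a1, a UGT that uses N-acetylglucosamine (92.3 to 115 against 194 to 235 CPM), Ugt2b34 (314 to 383 against 483 to 521 CPM) and Ugt1a1 (150 to 161 against 239 to 311 CPM). They were higher in 7, among them Gstm3 (38.3 to 106 against 17.8 to 24.5 CPM) and Gsta1 (4.11 to 13.2 against 1.67 to 2.47 CPM). Without replicates 4 to 6, 10 members were called in the 16-week HFD time course (22.2%, against 8.08% of all genes), with Ugt3a1 lowest at an adjusted p of 0.00109. In the test by diet 2 were then called (4.44%, against 1.61%), Ugt3a1 (0.0161) and Ugt3a2 (0.0484). The genes of this paragraph were chosen after their values were seen. Without replicates 4 to 6, 26 members differed between the diets after insulin (57.8%, against 60.6% of all genes).

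Genes that supply or remove conjugates were counted from lists (16-week HFD against chow, basal, against 32.3% of all genes called). Of 10 genes of glutathione synthesis, cysteine supply, recycling and breakdown 5 were called, 2 higher and 3 lower. Cth, which makes cysteine from cystathionine, fell from a mean of 1250 to 307 CPM (log2 fold change -2.02, adjusted p = 1.78e-08), Gsr, which reduces glutathione, from 96.2 to 58.3 CPM (-0.72) and Cbs from 580 to 360 CPM (-0.69). The 2 higher genes act at opposite ends of this list. Chac1, which degrades glutathione, rose from 0.930 to 5.94 CPM (2.65, adjusted p = 0.00043), and Slc7a11, which imports cystine, rose at levels below 1 CPM (2.45, adjusted p = 0.0221). Cth, Gsr, Cbs and Chac1 were called in the same direction after insulin. Of 9 genes that supply UDP-glucuronate and PAPS 3 were called, with Papss1, which makes PAPS, higher (0.71, adjusted p = 0.000402) and Impad1 (-0.61) and Slc35b3 (-0.39) lower. Of 5 efflux transporters Abcc6 was called (0.72, adjusted p = 1.35e-05). Outside the symbol rule, the membrane enzymes Mgst1 and Mgst3 were called in opposite directions, at -0.60 (from 4002 to 2646 CPM) and 1.53 (from 4.01 to 11.7 CPM).

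Lists that hold regulators together with their known targets did not move as 1 group. The receptor genes Nr1i3, Nr1i2 and Rxra stand in the CAR and PXR list. Ahr and Arnt stand in the Ah receptor list, and Nfe2l2 and Keap1 in the Nrf2 list. Of 8 CAR and PXR genes Cyp3a11 (-2.26, adjusted p = 0.00029) and Cyp3a25 (-1.40) fell and Rxra rose (0.48). Of 5 tested Ah receptor genes edgeR called 0, and 0 had an unadjusted p below 0.05 (against 42.0% of all genes). With metformin on chow 2 of these 5 were called, Cyp1a1 (log2 fold change 6.95, adjusted p = 0.000248) and Cyp1a2 (2.84, adjusted p = 0.00391), both through replicate 2. Cyp1a1 stood at 1.35, 328 and 0.838 CPM and Cyp1a2 at 274, 4291 and 257 CPM in the 3 chow metformin libraries, against 0.788 to 1.01 and 193 to 275 CPM in basal chow. Without replicate 2 they were not called (0.29, adjusted p = 0.821, and 0.24, adjusted p = 0.841), nor with only the 2 groups compared in the fit (0.107 and 0.137). The same library was the highest of its group for Ugt1a9, Ugt2b1, Ugt2b5, Ugt2b37, Gstp1 and Gstp2, but also for many other members. Among those were Gsta3 (18031 reads, against 14730 and 14337 in replicates 1 and 3) and Gstm1 (14182 against 13451 and 13142). Its total was the lowest of the group (19.1 M reads, against 20.3 and 21.6 M). It was not the highest for Ugt1a5 (221 reads, against 284 and 333). The part of these Ah receptor readouts in the member results was not tested. Of 7 Nrf2 genes Srxn1 alone was called (-0.81). Of 14 genes known as male-biased in mouse liver, 8 were lower and 2 higher (median log2 fold change -1.01), with Cyp4a12b at -3.58. Of 14 female-biased genes 4 were higher and 3 lower (median -0.47), with Cyp2b9 at 348.7 against 1.09 CPM. None of these lists holds a member, but some members are also known as sex-biased in mouse liver. Of the male-biased members, Ugt2b1, Ugt2b38 and Gstp1 were called lower on 16-week HFD and Gstp2 was not called. Of the female-biased members, Gstt3 was called higher, Sult3a1 and Sult2a7 were not called, and Sult2a1 to Sult2a6 were not tested. The labels give no sex, and a link between these members and the listed genes was not tested. Of 12 pancreatic acinar markers edgeR called 0, with 0 at an unadjusted p below 0.05, and of 7 muscle markers 5 were lower on 16-week HFD. Their part in the basal results was not tested.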

How the data were processed

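PolyA RNA from 45 mouse livers in 14 groups was sequenced with an unstranded kit as read pairs of 40 to 50 bases, per the labels' protocols. The authors deposited raw read counts per gene. Per the submitters' processing notes, TopHat 1.4.0, HTSeq and DESeq2 1.0.18 were used with the mm9 build, and how HTSeq treated reads in several genes is not given in the sources used here. Gene models are the deposited mm9 models, and the normalized tables were not used.

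Counts were scaled by TMM and fitted in edgeR 4.0.16 (R 4.3.3, filterByExpr with a minimum count of 10, all 45 libraries, 1 coefficient per group, quasi-likelihood F test). This left 14067 of 23227 genes, and 3737 had no read. P-values were adjusted by Benjamini-Hochberg over all genes tested within each comparison, and the SE was taken from the fold change and F. Sequences are from RefSeq (GRCm38.p6) and GENCODE M21. Alternatives were DESeq2 1.42.0, its size factors, no filter, a replicate block, only the groups compared, removal of length and GC trends, each library left out, and replicates 4 to 6 at 30 min left out. Fits were tested on simulated data. Replicate numbers were not treated as pairs in the main fit and entered only the replicate block alternative. Correlations of deviations between libraries of equal replicate number were all positive for metformin against basal on 6-week HFD (0.41, 0.16 and 0.30) and 16-week HFD (0.24, 0.15 and 0.12). They were also positive for 6-week HFD against chow with metformin (0.094, 0.067 and 0.24).

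Genes named are the 6 highest members of each class, the member with the largest fold of each class, up to 10 called members per direction and comparison above 1 CPM, and those needed for a count of 5 or fewer. Members, lists and tests were chosen with earlier results of these data known. 1 gene of the lists is not reported here.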

Additional observations from a re-analysis of the deposited data

Results flagged for a closer look

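In the 6 libraries of 16-week HFD at 30 min, the only group large enough for a test of single libraries, 3 of 45 members had 1 library far from the others. Chance gives about 1 in 20 members, which is near the share found. Sult1e1, the estrogen sulfotransferase, stood at 2.01 CPM in replicate 2 and at 0.348 to 0.933 CPM in the others. Ugt1a2 stood at 0.126 CPM in replicate 2 and at 0.228 to 0.275 CPM in the others, from 3 reads against 6 or 7. Ugt2b5 stood at 469.9 CPM in replicate 6 and at 338 to 383 CPM in the others, still below the lowest chow library after insulin (749 CPM).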

How the results depend on the processing

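Of 1492 alternative values for 94 named values, 1348 kept the direction and the side of the threshold, 125 lost the call, 2 gained it and 17 changed sign, all 17 for values that were not called. With only the groups compared in the fit, the members called were 20 for 16-week and 19 for 6-week HFD against chow, 3 for 16 against 6 weeks, 4 for 16-week HFD against chow with metformin, 8 for metformin on chow and 0 on 16-week HFD. With length and GC trends removed they were 4 for metformin on 16-week HFD (against 17.4% of all genes) and 1 for the chow time course (6.22%). DESeq2 called 1 in the chow time course, 1 in the insulin response by diet and 1 in the metformin response by diet. Without replicates 4 to 6 at 30 min they were 10 for the 16-week HFD time course and 2 for the insulin response by diet. With a replicate block they were 9 and 1 in the same 2 tests, against 7.67% and 1.31% of all genes. Replicates 4 to 6 have no partner at other times in these tests. The block changed no count beyond 1.5 times elsewhere, and added a call for Sult3a1 in basal livers (2.74, adjusted p = 0.0494). The cause of these shifts was not tested.

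Leaving out 1 library at a time gave 10 to 14 members for 16-week and 5 to 8 for 6-week HFD against chow, 0 to 7 for 16 against 6 weeks, 20 to 23 after insulin, 8 to 16 and 2 to 7 with metformin on 16-week and 6-week HFD, and 0 to 2, 2 to 2 and 2 to 15 for metformin on chow, 6-week and 16-week HFD. Shares of all genes called, in that order, were 24.0 to 28.9%, 5.40 to 9.17%, 3.79 to 7.78% and 56.2 to 59.9% without metformin. Between diets with metformin they were 11.2 to 26.1% and 1.68 to 4.02%. For metformin against basal they were 0.462 to 2.42%, 0.969 to 2.89% and 11.0 to 31.9%. The time courses gave 0 to 1 members on chow (2.92 to 5.28% of all genes) and 0 to 0 on 16-week HFD (1.01 to 3.51%). The insulin response by diet gave 0 to 0 (0.0910 to 0.721%) and the metformin response by diet 0 to 2 (0.624 to 9.67%). The signs that changed were, on the log2 scale, Ugt1a9 for 16 against 6 weeks (0.059 with trends removed, -0.47 to 0.30 by library), Gstt3 after 6 weeks (-0.17 to 0.55 by library) and with metformin on 16-week HFD (-0.35 to 0.078), and Sult3a1 after 6 weeks (-0.012 by DESeq2, -0.75 to 0.68 by library), with metformin on 6-week HFD against chow (-0.84 to 0.89), and with metformin on 16-week HFD (-0.29 with trends removed, -0.36 to 1.59 by library).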
